A study of Mus musculus with 6 samples.

Results

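The 9 factors described here are *Ovol1*, *Ovol2*, *Grhl1*, *Grhl2*, *Grhl3*, *Esrp1*, *Esrp2*, *Elf3* and *Ehf*, transcription and splicing factors of epithelial cells that were chosen by name from the 17428 genes measured in the series. All 9 had a row in the deposited table, *Esrp1* and *Esrp2* under the older symbols *Rbm35a* and *Rbm35b*. RNA was sequenced from EpH4 cells, a near-normal mouse mammary epithelial line, at 3 stages with 2 biological replicates each. E cells were kept in normal medium, M cells received TGFβ1 for 7 days, and RE cells received TGFβ1 for 7 days and were then kept without it for another 4 days. All stages came from the same line and shared a medium with serum and recombinant human insulin. The number of libraries per stage is small, and a fall in coverage in these bulk cultures could be fewer cells of a kind or less RNA per cell, which cannot be told apart.

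Epithelial cells keep their identity through a small set of regulators that act together. Ovol1 and Ovol2 are zinc finger repressors that hold back mesenchymal genes, the grainyhead-like proteins Grhl1, Grhl2 and Grhl3 activate genes of junctions and barrier formation, and Elf3 and Ehf are Ets factors found mainly in epithelia. Esrp1 and Esrp2 are RNA-binding proteins that select the epithelial exons of transcripts such as *Fgfr2*, *Cd44*, *Ctnnd1* and *Enah*. TGFβ1 is a classical inducer of EMT, in which Snail and Zeb repressors bind E-box elements in epithelial genes.

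The libraries held between 35782513 and 47928557 reads' worth of sequence, counted as sequenced bases divided by 50. Levels are normalised coverage, that is, bases per gene in parts per 1000000 (ppm) of the library total. The E replicates differed more from each other than the other pairs, with an SD across genes of the log2 difference of 0.558 in E, 0.318 in M and 0.309 in RE. Differences were tested with limma over 13893 genes, and a gene was called when the log2 fold change exceeded 1 in either direction and the Benjamini-Hochberg adjusted p was below 0.01. All 9 factors passed the filter on low values. The lowest value was that of *Ehf*, 7.46 reads' worth in M replicate 2, and the other 8 factors had at least 24.5 in every library. Among epithelial markers, *Krt8*, *Krt18*, *Cdh1* and *Epcam* were well covered at each stage, while *Krt5* stayed at 0.472 ppm or less in the stage means and *Krt19* at 349 bases or fewer per library.

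After 7 days of TGFβ1 all 9 factors were lower in both M libraries than in both E libraries, where 35% of all genes tested did not overlap in this direction (35.5% in the other). The test called 8 of the 9 lower in the M cells, while it called 8.39% of all genes lower, 8.58% higher and thus 17% in all. *Ehf* was the factor not called. The median log2 fold change was −1.96 over the 9 factors and 0.0013 over all genes tested. After removal of TGFβ1 all 9 were higher in both RE libraries than in both M libraries (37.9% of all genes, with 40.2% in the other direction), and 5 of the 9 were called higher (8.08% of all genes, with 4.79% lower and 12.9% in all), namely *Ovol1*, *Grhl1*, *Grhl2*, *Grhl3* and *Elf3*. The median log2 fold change of the 9 in M vs. RE was 1.58, beside −0.017 over all genes. Against the E cells only *Esrp1* was called in the RE cells, as lower (3.17% of all genes, with 6.2% higher and 9.37% in all), and the median over the 9 was 0.18, beside 0.0079 over all genes. *Ovol1*, *Grhl3* and *Ehf* were higher in both RE than in both E libraries, and *Ovol2* and *Esrp1* were lower, where 34.2% and 32.5% of all genes did so. In the plot of coverage by library, the 9 factors share the low point in the M cells and differ in where the RE cells lie.

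**Figure D1:**
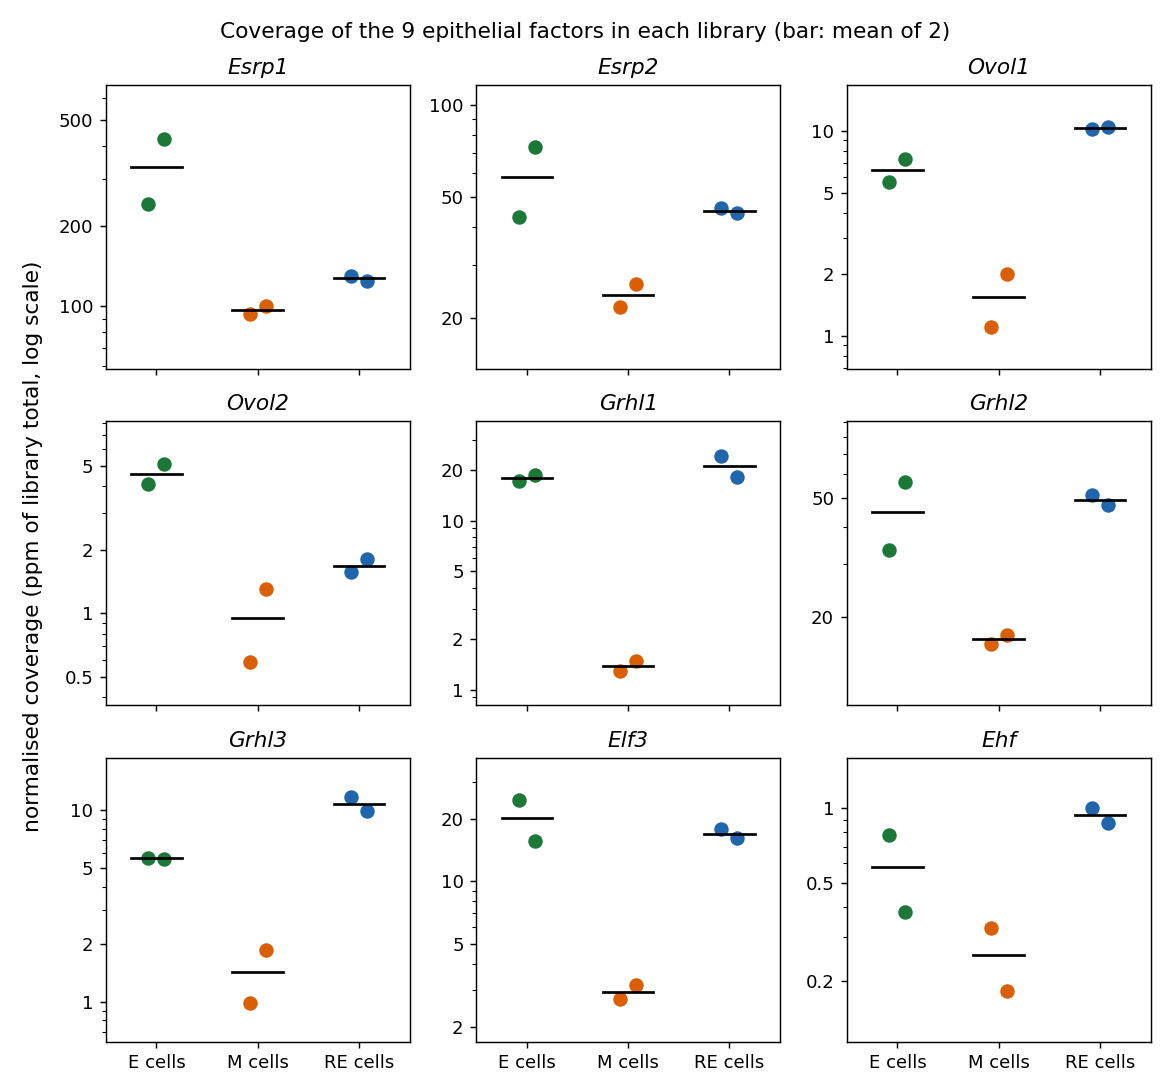
Normalised coverage in ppm of the library total (log axis, a separate scale for each gene) of the 9 factors in the 2 E, 2 M and 2 RE libraries; each point is a library and each bar the mean of 2. The M points lie lowest in every panel, and the RE points of *Esrp1* and *Ovol2* lie below both E points.

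RefSeq promoter windows (GRCm38.p6) were at hand for 4 of the 9 factors, *Ovol2*, *Grhl1*, *Grhl3* and *Elf3*, with 5 windows in all from 250 bases before to 50 after a transcript start. They were searched on both strands for CACCTG, the E-box of Zeb and Snail repressors, and for CCGTTA (Ovol), ACCGGTT (grainyhead) and GGAAGT (Ets), which do not overlap each other in these windows. The E-box was in the windows of *Elf3* and *Grhl3*, 2 of 5 windows, and in 20.2% of all 32851 windows. The Ets letters were in the *Ovol2* window alone (23.8% of all windows), and the Ovol (2.76%) and grainyhead letters (1.02%) were in none of the 5. The *Grhl3* window held the E-box again at 8 to 13 bases after the start. The windows of *Grhl1* held no match. The 250 bases before the start are shown for the 3 factors with a match there, *Elf3*, *Grhl3* and *Ovol2*. Capitals mark the matches, and each runs 5′ to 3′ on the strand of the gene, minus in all 3.
Elf3, chr1:135258473-135258722: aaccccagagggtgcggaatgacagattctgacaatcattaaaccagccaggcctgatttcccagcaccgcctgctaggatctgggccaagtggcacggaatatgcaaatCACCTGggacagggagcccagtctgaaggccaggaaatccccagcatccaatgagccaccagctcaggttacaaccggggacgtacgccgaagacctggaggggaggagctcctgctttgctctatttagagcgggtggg
Grhl3, chr4:135573633-135573882: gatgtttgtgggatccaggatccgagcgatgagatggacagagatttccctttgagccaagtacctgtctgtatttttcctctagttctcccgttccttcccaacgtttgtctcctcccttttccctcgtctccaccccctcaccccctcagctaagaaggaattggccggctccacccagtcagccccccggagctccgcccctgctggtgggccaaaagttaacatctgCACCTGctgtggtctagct
Ovol2, chr2:144331363-144331612: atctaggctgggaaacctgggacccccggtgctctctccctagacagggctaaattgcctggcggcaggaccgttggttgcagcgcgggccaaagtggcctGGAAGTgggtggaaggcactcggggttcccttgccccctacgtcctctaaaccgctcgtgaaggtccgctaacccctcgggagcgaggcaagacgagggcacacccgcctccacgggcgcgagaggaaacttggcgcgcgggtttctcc
Counted from the start, with negative positions before it, the E-box lay at −140 to −135 in *Elf3* and at −19 to −14 in *Grhl3*, and the Ets letters at −149 to −144 in *Ovol2*. A match describes the letters in the window and not a bound site.

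The Esrp splicing factors had the highest coverage per length of the group, and only *Esrp1* was called lower in RE than in E cells. *Esrp1* coverage was 242 and 421 ppm in the E libraries, 93.3 and 101 in the M libraries, and 130.4 and 124 in the RE libraries. The stages did not overlap, and both RE libraries lay much nearer to the M than to the E libraries. Its log2 fold change was −1.72 in E vs. M (standard error 0.24, limma adjusted p = 0.0013), 0.39 in M vs. RE (95% interval −0.17 to 0.95, limma adjusted p = 0.254) and −1.33 in E vs. RE (standard error 0.24, limma adjusted p = 0.00673). The mean in E cells was thus 2.61 times that in RE cells. *Esrp2* coverage was 43.1 and 73.0 ppm in the E libraries, 21.8 and 25.8 in the M libraries, and 45.9 and 44.2 in the RE libraries. It was low in M, and the RE libraries fell between the E replicates. It was called in E vs. M (log2 fold change −1.24, standard error 0.24, limma adjusted p = 0.00557) and passed neither threshold in M vs. RE (0.92, standard error 0.24, limma adjusted p = 0.0238). In E vs. RE its difference was −0.32 with a 95% interval of −0.88 to 0.24. The fit shares its spread across the stages, so the wide E pairs also enter the M vs. RE errors of both Esrp genes. For each gene both RE libraries lay above both M libraries. With 1 library left out, the M vs. RE log2 fold change was 0.34 to 0.45 for *Esrp1* and 0.80 to 1.04 for *Esrp2*. The *Esrp1* call in E vs. RE did not hold in a fit of only the E and RE libraries (limma adjusted p = 0.0261) or without the filter (0.0135), nor without M replicate 1 or M replicate 2 (0.0205 for each), RE replicate 1 (0.0662), RE replicate 2 (0.0556) or E replicate 2 (log2 fold change −0.92). An exon of *Nfatc3*, on the opposite strand, overlaps exons of *Esrp2* in a newer annotation, and whether reads were assigned by strand is not given in the sources used here.

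Both Ovol repressors were lower in M cells, and *Ovol1* but not *Ovol2* was called higher after TGFβ1 removal. *Ovol1* coverage was 5.64 and 7.34 ppm in the E libraries, 1.10 and 2.00 in the M libraries, and 10.3 and 10.5 in the RE libraries. The RE libraries were above both E libraries, and the M libraries were below all others. Its log2 fold change was −2.04 in E vs. M (standard error 0.29, limma adjusted p = 0.0014) and 2.72 in M vs. RE (standard error 0.29, limma adjusted p = 0.000451). The difference of 0.68 in E vs. RE was not called (limma adjusted p = 0.112, 95% interval 0.0077 to 1.36). *Ovol2* coverage was 4.11 and 5.09 ppm in the E libraries, 0.587 and 1.31 in the M libraries, and 1.57 and 1.81 in the RE libraries. Both RE libraries were above the M libraries and below the E libraries. It was lower in M (log2 fold change −2.25, standard error 0.35, limma adjusted p = 0.00221), but the later difference of 0.86 in M vs. RE was not called (limma adjusted p = 0.106). In E vs. RE *Ovol2* differed by −1.39 (standard error 0.35, limma adjusted p = 0.0236), which passed the fold and not the p threshold. It was called there with a pseudocount of 1 ppm (−1.06, limma adjusted p = 0.00885). Its log2 fold change was −1.54 without E replicate 1 and −1.24 without E replicate 2, fits in which E adds nothing to the spread. Transcripts on the opposite strand overlap exons of both genes, and of *Grhl2* and *Elf3*, in a newer annotation, so that coverage from both strands may be summed there.

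The 3 grainyhead-like factors were each called lower in E vs. M and higher in M vs. RE. *Grhl1* coverage was 17.1 and 18.5 ppm in the E libraries, 1.29 and 1.48 in the M libraries, and 24.2 and 18.1 in the RE libraries. The M libraries stood far below the rest, and RE replicate 2 lay between the E libraries. Its log2 fold change of −3.59 in E vs. M (standard error 0.20, limma adjusted p = 2.29e-05) was the largest of the 9, a mean 12.8 times higher in E than in M, and only 0.871% of all genes tested had a lower value. In M vs. RE it rose by 3.82 (standard error 0.20, limma adjusted p = 2.09e-05), and in E vs. RE it differed by 0.23 (95% interval −0.23 to 0.70). *Grhl2*, a regulator of junction genes, was at 33.5 and 56.5 ppm in the E libraries, 16.1 and 17.4 in the M libraries, and 51.3 and 47.4 in the RE libraries. The RE values fell between the E replicates. Its log2 fold change was −1.37 in E vs. M (standard error 0.24, limma adjusted p = 0.00327), 1.55 in M vs. RE (standard error 0.24, limma adjusted p = 0.00238) and 0.18 in E vs. RE (95% interval −0.37 to 0.73). *Grhl3*, which acts in skin barrier formation, was at 5.67 and 5.55 ppm in the E libraries, 0.992 and 1.86 in the M libraries, and 11.8 and 9.87 in the RE libraries. Both RE libraries exceeded both E libraries, with a mean 1.93 times that of E. Its log2 fold change was −1.96 in E vs. M (standard error 0.29, limma adjusted p = 0.00166) and 2.89 in M vs. RE (standard error 0.29, limma adjusted p = 0.000329), and the rise of its mean over E was not called (0.93, standard error 0.29, limma adjusted p = 0.0464).

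Of the Ets factors, *Elf3* was called in both E vs. M and M vs. RE and *Ehf*, which few reads covered, in neither. *Elf3* coverage was 24.5 and 15.5 ppm in the E libraries, 2.71 and 3.15 in the M libraries, and 17.7 and 16.1 in the RE libraries. The M libraries were apart from the rest, and the RE values fell between the E replicates. Its log2 fold change was −2.70 in E vs. M (standard error 0.24, limma adjusted p = 0.000158), 2.49 in M vs. RE (standard error 0.24, limma adjusted p = 0.00026) and −0.20 in E vs. RE (95% interval −0.76 to 0.35). *Ehf* coverage was 0.782 and 0.381 ppm in the E libraries, 0.327 and 0.181 in the M libraries, and 1.01 and 0.872 in the RE libraries, where 3 reads' worth are 0.0635 to 0.0781 ppm. The order of the stages was that of *Grhl3*, but the E replicates differed and the gene was not called in E vs. M (−0.91, standard error 0.39, limma adjusted p = 0.101) or M vs. RE (1.58, standard error 0.39, limma adjusted p = 0.0201). With 1 library left out, its log2 fold change spanned 1.28 to 1.89 in M vs. RE and −1.36 to −0.47 in E vs. M.

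**Figure D2:**
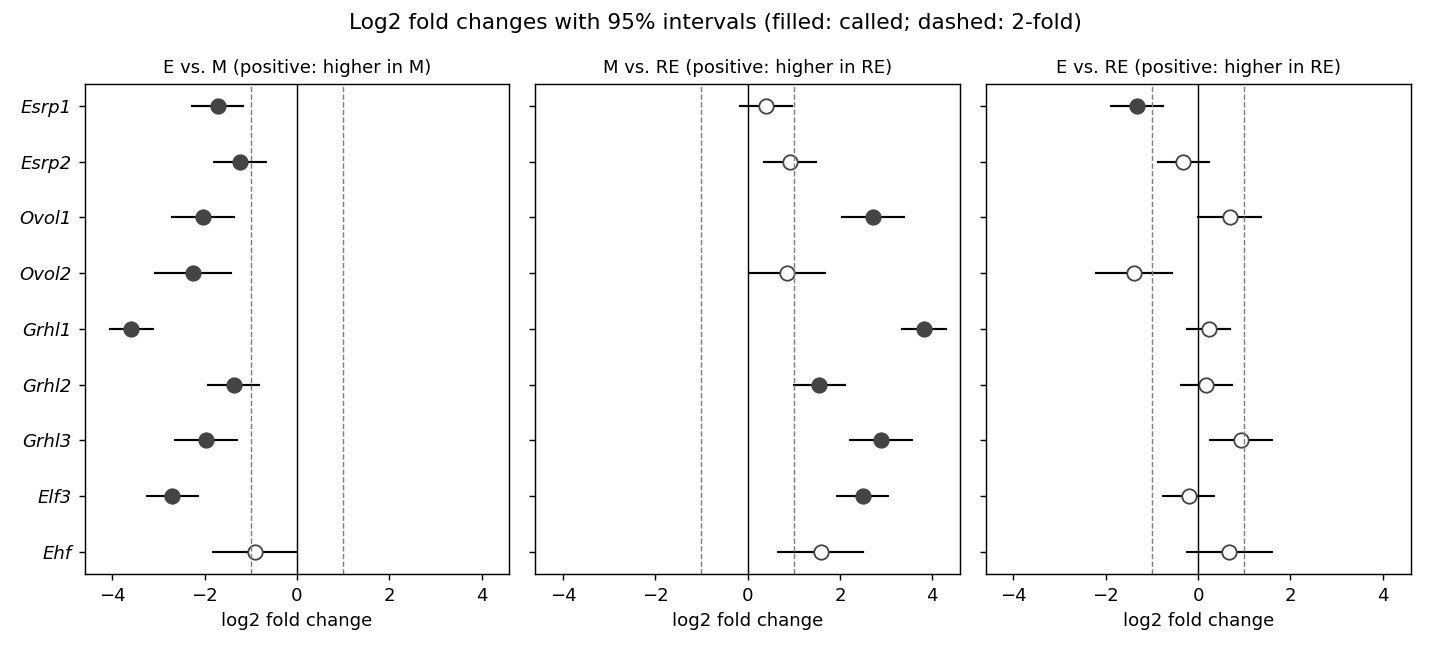
Log2 fold changes of the 9 factors (points) with 95% intervals from limma (lines) in the 3 comparisons; filled points were called and dashed lines mark a 2-fold change. All 9 points lie below 0 in E vs. M, 5 of 9 are filled in M vs. RE, and *Esrp1* is the 1 filled point in E vs. RE.

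Leaving out a library changed how many factors passed the test, and it also changed the count over all genes, whose range is given further below. Each such fit leaves 1 library in a stage, which then adds nothing to the spread, so its counts are descriptions. In E vs. M, 8 of the 9 were called without E replicate 1, 8 without E replicate 2 (*Ehf* in place of *Esrp2*), 2 without M replicate 1, 5 without M replicate 2 and 6 without RE replicate 1 or RE replicate 2. Only *Grhl1* and *Elf3* were called with each library left out. Without M replicate 1, *Ovol1* (limma adjusted p = 0.0104), *Grhl3* (0.0107), *Ovol2* (0.0135) and *Esrp1* (0.0173) missed the threshold, and *Esrp1* did so without M replicate 2 (0.0142). The *Grhl2* call in E vs. M did not hold when any M or RE library was left out, and the *Esrp2* call likewise or without E replicate 2 (−0.88). In a fit of only the E and M libraries *Grhl2* (limma adjusted p = 0.0116) and *Esrp2* (0.0176) were not called either, nor was *Esrp2* without the filter (0.0104). In M vs. RE the number was 6 without E replicate 1 or E replicate 2, *Ehf* being added, and 4 without any 1 of the M or RE libraries, *Grhl2* being the factor no longer called. In E vs. RE it was 2 without E replicate 1, 1 without E replicate 2 (*Ovol2* in place of *Esrp1*) and 0 without any 1 of the M or RE libraries. When libraries were scaled by their totals alone, the median over all genes became −0.29 (E vs. M), 0.18 (M vs. RE) and −0.082 (E vs. RE), while the counts of factors called were again 8, 5 and 1. Higher genes then made up 30.5% of the calls in E vs. M (50.6% with TMM) and 73.8% in M vs. RE (62.8% with TMM).

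The share of the change that was left in the RE cells is given as a residual, the log2 difference of RE from E as a percentage of that of M from E. It was 77.1% for *Esrp1* and 61.9% for *Ovol2*. It was 25.6% for *Esrp2* and 7.59% for *Elf3*. It was −6.46% for *Grhl1*, −13.2% for *Grhl2*, −33.4% for *Ovol1*, −47.3% for *Grhl3* and −73.7% for *Ehf*, whose M to E difference was not called, where a negative value means that the RE mean lay above the E mean. The E libraries enter both terms of this percentage, and differences in residual between factors were not tested.

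Ratios of family members within a library do not depend on scaling. The *Esrp1* to *Esrp2* ratio of coverage was 5.61 and 5.77 in the E libraries, 4.29 and 3.89 in the M libraries, and 2.84 and 2.81 in the RE libraries. It fell from E to M and again from M to RE with no overlap between stages. The *Ovol1* to *Ovol2* ratio was 1.37 and 1.44 in the E libraries, 1.88 and 1.53 in the M libraries, and 6.54 and 5.82 in the RE libraries, so that the RE cells stood apart. The *Grhl1* to *Grhl2* ratio was 0.51 and 0.328 in the E libraries, 0.0802 and 0.0853 in the M libraries, and 0.471 and 0.381 in the RE libraries, which places the M cells apart. The *Grhl3* to *Grhl2* ratio overlapped between E (0.169 and 0.0983) and M (0.0615 and 0.107) and was higher in both RE libraries (0.23 and 0.208). The *Elf3* to *Ehf* ratio was 31.4 and 40.7 in the E libraries, above the M (8.27 and 17.4) and RE libraries (17.6 and 18.5), but it rests on the few reads of *Ehf*. With 2 libraries against 2, an exact permutation test cannot give a p below 0.333, so these ratios are given without a test.

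**Figure D3:**
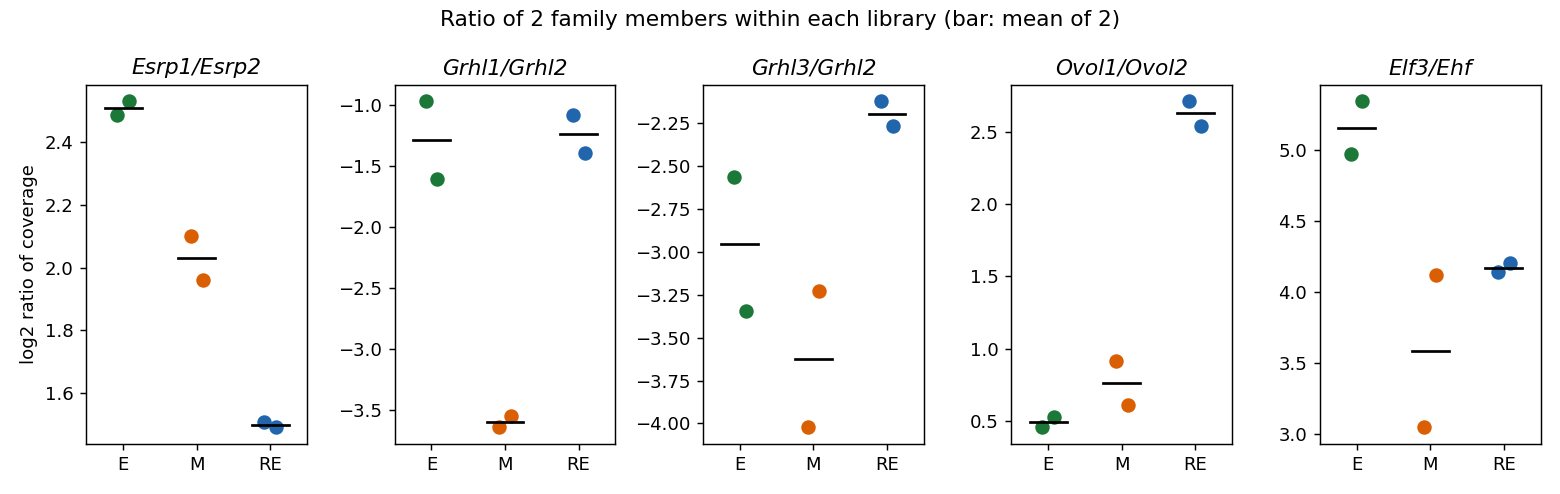
Log2 ratio of the coverage of 2 members of a family within each library (points) at the E, M and RE stages, with the mean of 2 as a bar and a separate axis for each pair. The *Esrp1* to *Esrp2* ratio is lowest and the *Ovol1* to *Ovol2* ratio highest in the RE libraries.

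The closest pairs of profiles joined different families, as most of the 36 possible pairs do, and the Esrp pair came next. The root mean square difference of log2 values over the 6 libraries, each gene centred on its mean, was 0.18 between *Ovol1* and *Grhl3*, 0.27 between *Grhl2* and *Esrp2*, and 0.39 between *Ovol2* and *Esrp1*, the 3 smallest of the 36 pairs. Within families it was 0.41 for the Esrp genes, 0.63 to 1.08 for the Grhl genes, 0.77 for *Elf3* and *Ehf*, and 0.94 for the Ovol genes. These distances are descriptions over 6 libraries that share stages and scaling. Among the 10089 other genes whose log2 values averaged 2 or more, the nearest to both *Ovol1* (0.17) and *Grhl3* (0.15) was *Ssbp2*, at 30.4 ± 1.22 ppm (SD, n = 2) in E, 8.20 ± 1.74 in M and 58.0 ± 0.063 in RE. *Epb4.1l4b* was nearest to *Grhl1* (0.11), *Ddit3* to *Grhl2* (0.046), *Lonp1* to *Esrp1* (0.15), *Als2cl* to *Esrp2* (0.074), *Arhgef4* to *Ovol2* (0.13), *Rragb* to *Elf3* (0.16) and *BC067068* to *Ehf* (0.082).

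Per length of sequence, the order of the factors shifted between stages. Divided by the union of exons in a newer annotation (GENCODE vM21), mean coverage in E cells was 83.5 ± 32.0 ppm per kb (SD, n = 2) for *Esrp1*, 16.4 ± 5.97 for *Esrp2*, 9.56 ± 3.05 for *Elf3*, 8.43 ± 3.05 for *Grhl2* and 5.08 ± 0.291 for *Grhl1*. *Ovol2* (2.38 ± 0.358), *Ovol1* (2.18 ± 0.403) and *Grhl3* (2.01 ± 0.0297) followed, and *Ehf* was at 0.126 ± 0.0615. The levels of *Elf3* and *Grhl2* did not differ beyond their spread, nor did *Ovol1* differ so from *Ovol2* or *Grhl3*. *Ovol2* lay above *Grhl3* by slightly more than its SD. In M cells *Esrp1* (24.4 ± 1.28) and *Esrp2* (6.73 ± 0.812) were still highest, *Grhl2* (3.14 ± 0.17) was above *Elf3* (1.40 ± 0.15), and *Grhl1* (0.396 ± 0.0388) was among the low group with *Ovol1*, *Grhl3* and *Ovol2* (0.49 to 0.522). In RE cells *Esrp1* was at 32.1 ± 1.12 ppm per kb and *Esrp2* at 12.7 ± 0.339, while *Ovol2* (0.873 ± 0.0865) was now below *Grhl3* (3.88 ± 0.483) and *Ovol1* (3.49 ± 0.057) by more than their spread. In that annotation (GRCm38) *Elf3* lies on chromosome 1, *Ovol2* and *Ehf* on chromosome 2, *Grhl3* and *Esrp1* on chromosome 4, *Esrp2* on chromosome 8, *Grhl1* on chromosome 12, *Grhl2* on chromosome 15 and *Ovol1* on chromosome 19.

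Among factors known to repress epithelial genes, *Zeb2* and *Snai1* were higher in M and in RE cells than in E cells, whereas the mean of *Twist1* was lower in M. *Zeb2* rose from 14.3 ± 4.84 ppm (SD, n = 2) in E to 128 ± 10.3 in M and was at 78.3 ± 4.96 in RE. *Snai1* rose from 6.48 ± 1.94 to 22.8 ± 2.17 and was at 18.9 ± 0.829 in RE. *Twist1* was at 5.16 ± 0.47 ppm in E, 2.87 ± 0.253 in M and 4.78 ± 0.291 in RE. It was not called in E vs. M (log2 fold change −0.82, limma adjusted p = 0.0129). The list held 5 repressors and did not include *Zeb1*. Of these 5, *Zeb2* and *Snai1* were called higher in E vs. M (log2 fold changes 3.20 and 1.83, limma adjusted p = 6.07e-05 and 0.000673), beside 8.58% of all genes. These 2 were also called higher in E vs. RE (2.49 and 1.56, limma adjusted p = 0.000567 and 0.00275), beside 6.2% of all genes. In M vs. RE 0 were called, and 3 of the 5 had a positive and 2 a negative log2 fold change. *Zeb2* and *Twist1* had an unadjusted limma p below 0.05 there. The E vs. RE count fell without any 1 of the M or RE libraries, and the E vs. M count fell without M replicate 1. Both counts rose without E replicate 2. With library totals 1 of the 5 was also called lower in E vs. M.

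Markers of other cell types also moved between stages, and their part in the changes of the factors was not tested. The summed coverage of fibroblast markers (4 of 5 in the table) was 70.1 and 70.9 ppm in E, 579 and 679 in M and 378 and 439 in RE. Most of it was *Col1a1*, with stage means of 32.2, 497 and 236 ppm in E, M and RE. *Pdgfra* was highest in RE (18.4, 31.5 and 84.1 ppm), and *Dcn* was lowest in M (0.399, 0.0034 and 2.77 ppm). Endothelial markers summed to 0.37 and 0.56 ppm in E, 2.71 and 2.73 in M, and 0.497 and 0.493 in RE. Most of the M sum was *Cdh5*, at 0 in both E libraries, at 2.33 and 2.07 ppm in M and at 0.0423 and 0.091 in RE. The other endothelial markers did not share this rise. *Pecam1* was not called in any comparison (0.208, 0.346 and 0.312 ppm). *Tek* had 548 and 365 bases in E, 200 and 350 in M and 199 and 185 in RE, and *Kdr* had at most 150 in any library. Both were too low to be tested. Neural markers (3 of 4 in the table) summed to 21.6 to 30.5 ppm in E and M and 85.3 to 87.6 in RE, nearly all of it *Map2*, while *Tubb3* (0.0692, 0.562 and 0.078 ppm) and *Gfap* (0.0506, 0.327 and 0.0415 ppm) were highest in M. Leukocyte markers summed to 5.27 to 9.36 ppm across libraries, nearly all of it *Cd68*. The 8 epithelial markers summed to 3067 to 3650.2 ppm in E and M and 1445 to 1586 in RE, with *Krt7* the largest (1409, 1585 and 366 ppm). Within that sum *Krt14* was called higher in M (269 to 711 ppm) and *Epcam* lower (313 to 129.8 ppm).

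Of 19 relatives of the factors in the same families that were tested, 1 was called lower and 3 higher in E vs. M (17% of all genes in either direction), with a median log2 fold change of 0.45. *Tfcp2l1*, a grainyhead-related factor, was lower in M (24.7 ± 12.2 ppm in E, 1.21 ± 0.311 in M, log2 fold change −4.17, limma adjusted p = 0.000226) and higher again in RE (11.8 ± 4.62, 3.15 in M vs. RE, limma adjusted p = 0.00104). *Elf5*, the Ets factor of luminal progenitors, went the other way, with 0.0637 ± 0.0247 ppm in E, which is about the floor of 3 reads' worth, 2.89 ± 0.0106 in M and 0.271 ± 0.135 in RE (log2 fold change 4.20 in E vs. M, limma adjusted p = 0.000135, a value that depends on the pseudocount). *Etv6* rose in M (log2 fold change 1.30, limma adjusted p = 0.00252). *Spdef* was not tested, with at most 316 bases in any library. In M vs. RE, 1 of the 19 was called higher and 3 lower (8.08% and 4.79% of all genes). In E vs. RE 1 was called higher (6.2% of all genes). The 3 higher calls in E vs. M were 5 without E replicate 2 and 1 without E replicate 1, M replicate 1 or M replicate 2, and the 1 in E vs. RE was 5 without E replicate 2 and 0 without RE replicate 1 or RE replicate 2. In M vs. RE the 3 lower calls were 1 without M replicate 1 or M replicate 2, and the 1 higher call was 0 without M replicate 2 or RE replicate 1 and 2 without E replicate 1 or E replicate 2.

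Of 14 other transcription factors of epithelia tested, 5 were called lower and 1 higher in E vs. M (8.39% and 8.58% of all genes). In M vs. RE 7 were called higher and 0 lower (8.08% and 4.79% of all genes). In E vs. RE 3 were called higher and 1 lower (6.2% and 3.17% of all genes). *Klf4*, a factor of epithelial differentiation, was at 129 ± 19.6 ppm in E, 19.1 ± 1.36 in M and 142 ± 4.71 in RE (log2 fold change −2.74 in E vs. M, limma adjusted p = 2.17e-05, and 2.89 in M vs. RE, limma adjusted p = 1.96e-05). *Msx2* fell to 15.6 ± 2.12 from 83.5 ± 8.26 and stayed lower in RE (31.5 ± 1.84, log2 fold change −1.40 in E vs. RE, limma adjusted p = 0.00119), whereas *Tbx3* rose in M (1.61, limma adjusted p = 0.00142). The *Msx2* call in E vs. RE did not hold without RE replicate 1 or RE replicate 2. Nor did the *Tbx3* call in E vs. M without M replicate 1 or M replicate 2. *Trp63*, the basal epithelial factor, was at 70.4 ± 16.1, 49.8 ± 7.23 and 165 ± 10.2 ppm in E, M and RE and was called higher in RE than in E (log2 fold change 1.25, limma adjusted p = 0.00346). *Klf5* was called in M vs. RE (1.14, limma adjusted p = 0.00158). The 7 calls in M vs. RE fell to 3 without M replicate 1, M replicate 2 or RE replicate 2 and to 2 without RE replicate 1, the 5 lower calls in E vs. M to 2 without M replicate 1 or M replicate 2, and the 3 higher calls in E vs. RE to 1 without an M library or with library totals and to 0 without RE replicate 1 or RE replicate 2.

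Among 23 tested epithelial genes that include known targets of these factors, 16 were called lower and 0 higher in E vs. M. Over all genes these shares were 8.39% and 8.58%, and the median log2 fold change of the 23 was −1.26. In M vs. RE 8 were called higher and 1 lower (8.08% and 4.79% of all genes). In E vs. RE 10 were called lower and 0 higher (3.17% and 6.2% of all genes), with a median of −0.89. *Rab25*, a small GTPase of apical recycling and a Grhl2 target, was at 107 ± 2.11 ppm in E, 9.69 ± 2.58 in M and 38.7 ± 2.44 in RE, and was called lower in RE than in E (−1.47, limma adjusted p = 0.00202). *Marveld3*, a tight junction protein, was at 20.1 ± 1.53, 1.66 ± 0.396 and 9.73 ± 0.387 ppm (−1.04 in E vs. RE, limma adjusted p = 0.00987). *Cdh1*, which encodes E-cadherin, was not called in any comparison (−0.15 in E vs. M, limma adjusted p = 0.478). The 10 calls in E vs. RE fell to 0 without RE replicate 1 or without RE replicate 2 and to 7 without M replicate 1 or M replicate 2, the 16 calls in E vs. M to 9 without M replicate 1, and the 8 in M vs. RE to 5 without M replicate 1 and 4 without RE replicate 1.

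Splicing regulators and Esrp target transcripts were called in both directions in E vs. M. Over all genes tested, 8.58% were called higher and 8.39% lower in E vs. M. These shares were 8.08% and 4.79% in M vs. RE and 6.2% and 3.17% in E vs. RE. A single call among 10 or 13 genes lies near the shares of E vs. M. Of 13 splicing regulators, 3 were called higher and 1 lower in E vs. M, a balance that became 1 higher and 2 lower with library totals. *Rbm47*, an RNA-binding protein of epithelia, was lower in M (41.5 ± 11.6 ppm in E, 10.4 and 9.65 in the M libraries, log2 fold change −2.01, limma adjusted p = 0.000282) and higher again in RE (36.8 ± 1.33, 1.86, limma adjusted p = 0.000486). *Mbnl2* (1.54, limma adjusted p = 0.00105) and *Qk* (1.27, limma adjusted p = 0.00616), which regulate alternative exons, were higher in M. In E vs. RE 2 of the 13 were called higher and 0 lower, and in M vs. RE 1 was called higher. Of 10 Esrp target transcripts, *Fgfr2* fell in M (52.2 ± 6.04 ppm in E, 20.3 ± 2.00 in M, −1.36, limma adjusted p = 0.000453) and was higher in RE (109 ± 7.51) than in E (1.06, limma adjusted p = 0.00282), while *Cd44* (1.93, limma adjusted p = 0.00081) and *Enah* (1.04, limma adjusted p = 0.00283) rose in M. In M vs. RE 1 was called higher and 1 lower. The higher calls in E vs. M fell to 0 in both lists without M replicate 1 or M replicate 2 and to 1 in both without E replicate 1, and in E vs. RE to 0 in both without RE replicate 1 or RE replicate 2. The *Fgfr2* call in E vs. RE was also lost with library totals and without E replicate 1, M replicate 1 or M replicate 2. Coverage summed per gene does not tell which exons were used, so isoform choice was not measured here.

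**Figure D4:**
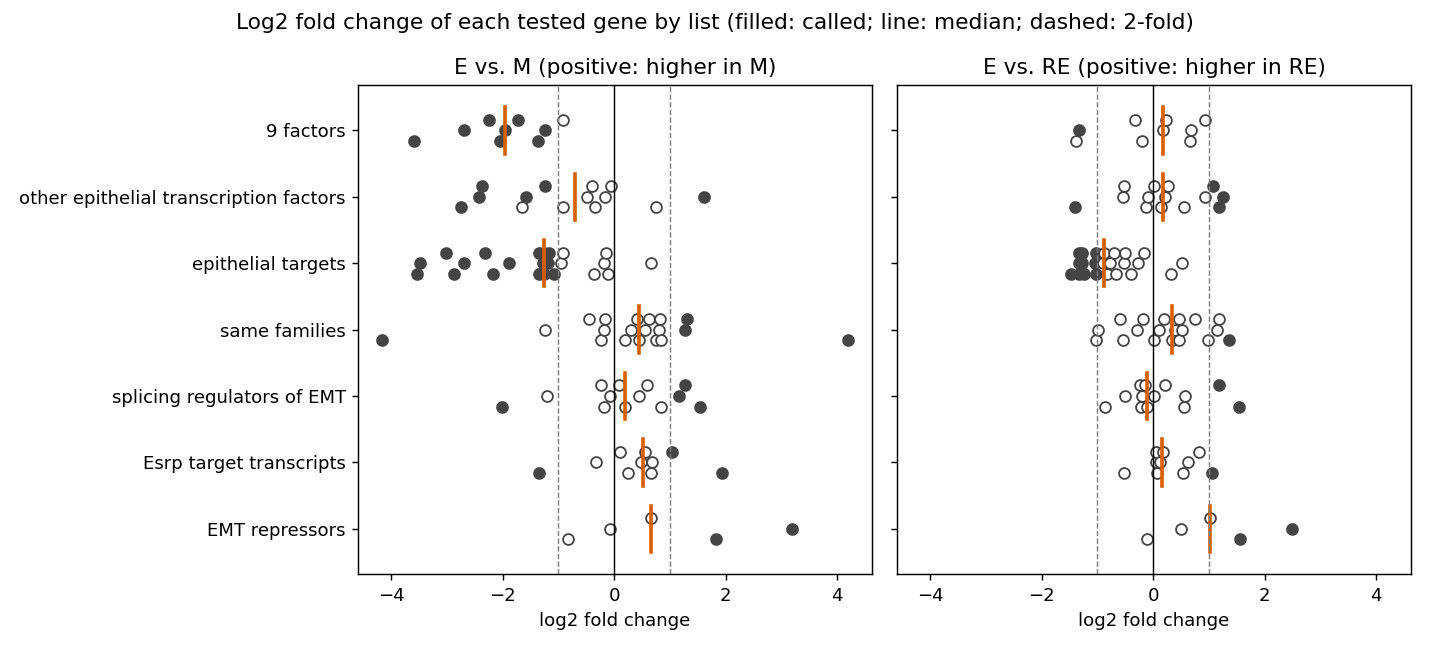
Left panel E vs. M and right panel E vs. RE, log2 fold change of each tested gene of the 9 factors and of 6 related gene lists; filled points were called, orange lines are list medians and dashed lines mark a 2-fold change. In E vs. M the medians of the 9 factors (−1.96) and of the epithelial targets (−1.26) are the lowest, and in E vs. RE the targets (−0.89) lie below the factors (0.18).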

How the data were processed

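RNA from 2 biological replicates each of E, M and RE stages of EpH4 was sequenced on an Illumina Genome Analyzer. The authors mapped unique reads to the NCBI-m37 mouse genome with Bowtie and TopHat2 (versions not given in the sources used here) and deposited 1 table of unnormalized values per gene, which behave as signal, that is, coverage summed in bases: between 44.8% and 48.4% of the values from 1 to 400 are multiples of 50. The summing step and its annotation are not given in the sources used here. edgeR, named in the submitters' notes, needs read counts and was not run.

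Values were scaled by TMM without weights (30% of log ratios and 5% of levels trimmed at each end) to ppm. Genes that reached 500 bases in 2 or more libraries were fitted with limma 3.58.1 in R 4.3.3 on log2(ppm + 0.1), all 6 libraries, group only, trended empirical Bayes. This scale understates changes of low genes. Intervals and depths cover counting error or the spread of these samples only. Replicate numbers come from the labels. The 9 factors and the gene lists were chosen with earlier results of these data known, and list counts are descriptions. Older symbols were matched through RefSeq synonyms. Genes named outside the 9 are the nearest profile of each, the 2 largest calls of a list in each direction of E vs. M, and *Elf5*, *Spdef*, *Rbm47*, *Klf4*, *Klf5*, *Trp63*, *Cdh1*, *Zeb2* and *Snai1*, with 1 further gene of the rule not reported here; *Twist1*, the markers of other cell types and the keratins were named after their values were seen, and *Epcam* and *Nfatc3* likewise. The fit was tested on simulated data. Protein identities were not computed here.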

Additional observations from a re-analysis of the deposited data

How the results depend on the processing

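Under the alternatives run, the log2 fold change of each of the 9 factors kept its sign in E vs. M and M vs. RE. In E vs. RE, leaving out E replicate 1 turned *Grhl2* (−0.20) and *Elf3* (0.12), and leaving out E replicate 2 turned *Esrp2* (0.065). With 1 library left out these 3 spanned −0.20 to 0.56, −0.53 to 0.12 and −0.70 to 0.065. The number of factors called in E vs. RE, 1 in the reported fit, was 2 at an adjusted p below 0.05, 2 with a pseudocount of 1, 0 without a filter and 0 when only the 2 groups compared were fitted, where 525 genes were called in all against 1302. With 1 library left out it was 0 to 2, and in E vs. M it was 2 to 8 and in M vs. RE 4 to 6. The count of all genes called then ran from 945 to 3362 in E vs. M (2358 in the reported fit), from 683 to 2337 in M vs. RE (1789) and from 44 to 2348 in E vs. RE. The cause of these shifts was not tested.

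The correlation across genes of same-numbered deviations from the stage means was 0.267 (E with M), 0.058 (E with RE) and 0.116 (M with RE). It was not over 0.1 in every pair, and no label ties the numbers to a shared culture, so they were not taken to pair the libraries. With the replicate number as a block, 8, 6 and 1 of the factors were called in E vs. M, M vs. RE and E vs. RE (*Ehf* being the added call, adjusted p = 0.00949 by limma), and 2431, 1830 and 1284 genes in all. The median residual over the 8 factors called in E vs. M was 0.0057, as a fraction of the E to M change, and spanned −0.078 to 0.047 with 1 library left out, an alternative chosen after seeing the data. The residuals of the 8 ran from −0.47 for *Grhl3* to 0.77 for *Esrp1*, so the median does not describe the single factors. With 2 libraries per stage the spread is estimated from few values, and *Ehf* is also limited by depth.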
